A study of Mus musculus with 6 samples.

Results

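The tripartite motif (TRIM) genes are a large family of E3 ubiquitin ligases and their relatives, and they were followed here in the gastrocnemius (GAS) muscle of mice with and without the potassium channel subunit Kvβ2. The members were all entries of the deposited table whose symbol is *Trim* followed by a number, apart from *Trim54*, *Trim55* and *Trim63*, the muscle ring finger genes of the sarcomere. This gave 66 of the 37979 entries of the table, with 65 symbols since *Trim30b* is listed under 2 identifiers. In the GENCODE vM21 annotation of the mouse genome GRCm38, 64 of them are protein coding, 1 is a pseudogene (*Trim30e-ps1*), and 1 of the *Trim30b* identifiers is absent. The rule itself uses no measured value, though the members were chosen with earlier results of these data known.

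The study compared untreated male mice that lack Kvβ2 throughout the body (Kvβ2-/-, KO) with age-matched wildtype (WT) mice, both bred from Kvβ2+/- parents and 20 weeks old. Strain background and batches of library preparation are not given in the sources used here. The GAS muscle of 3 KO and 3 WT mice was sequenced, 1 library for each mouse, and the libraries carry the replicate numbers 1, 7 and 8 in both genotypes. Values are FPKM, the fragments of a gene scaled to the length of its transcript and to the mapped fragments of the library, so levels of different genes are compared per length. Depth, estimated from the steps of low FPKM values, was 14500000 to 19320000 fragments in KO and 19880000 to 20960000 in WT libraries, so each KO library was less deep than each WT library. *Kcnab2*, which encodes Kvβ2, lay at 0.233, 0.10 and 0.110 FPKM in the WT libraries with the numbers 1, 7 and 8. In the KO libraries it reached 0.0151 FPKM for number 7, and numbers 1 and 8 have it listed at 0. The summed level of 11 skeletal muscle markers ranged from 34731 to 56692 FPKM over all libraries, with *Myh4* listed at 0 in each of them, so a value of 0 in this table is not always an absence.

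A typical TRIM protein carries, from its N-terminus, a RING finger, B-box zinc fingers and a coiled coil, followed by a C-terminal domain that picks the partner or substrate. The RING finger holds zinc ions between cysteines and a histidine and docks the E2 enzyme that brings ubiquitin, while the coiled coil pairs the proteins into dimers. In muscle, members of the family are known for sealing torn membranes (*Trim72*), for binding the glycogen primer glycogenin (*Trim7*) and for a limb-girdle muscular dystrophy (*Trim32*). Other members regulate chromatin or the sensing of viral RNA.

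The RING pattern searched in the translated coding sequences holds 7 cysteines and 1 histidine, in the order C, C, C, H, C, C, C, C. Between them it allows 2 residues, 9 to 39, 1 to 3, 2 to 3, 2, 4 to 48 and 2. The pattern was found in 49 of the 64 protein coding members and in 22 of the 28 members that were high enough to be tested. Of the 9 members that differed between the genotypes at an unadjusted p under 0.05, 6 held the pattern. Their RING coding stretches are shown because they make the shared domain visible. Their own GC content did not follow the direction of the differences, unlike that of whole transcripts below. Each is the coding strand of the GENCODE vM21 transcript, exons joined, from the codon of the leading zinc-binding residue to that of the last one. Capitals mark the codons of the 8 residues of the pattern.
Trim47: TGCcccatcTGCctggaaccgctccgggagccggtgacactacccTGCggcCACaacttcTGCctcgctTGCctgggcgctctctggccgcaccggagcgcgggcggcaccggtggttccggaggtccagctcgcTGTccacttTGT
Trim3: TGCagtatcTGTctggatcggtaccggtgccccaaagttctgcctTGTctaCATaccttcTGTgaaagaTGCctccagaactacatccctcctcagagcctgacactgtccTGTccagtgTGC
Trim72: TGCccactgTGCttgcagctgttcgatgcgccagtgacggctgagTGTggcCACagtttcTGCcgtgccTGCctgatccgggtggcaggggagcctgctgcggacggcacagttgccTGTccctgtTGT
Trim8: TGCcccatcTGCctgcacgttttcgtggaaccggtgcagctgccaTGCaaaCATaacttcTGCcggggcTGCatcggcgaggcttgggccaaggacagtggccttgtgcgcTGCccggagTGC
Trim33: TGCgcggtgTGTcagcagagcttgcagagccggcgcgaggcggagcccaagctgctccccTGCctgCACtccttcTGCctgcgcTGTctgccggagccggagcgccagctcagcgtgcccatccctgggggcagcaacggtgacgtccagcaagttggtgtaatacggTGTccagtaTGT
Trim13: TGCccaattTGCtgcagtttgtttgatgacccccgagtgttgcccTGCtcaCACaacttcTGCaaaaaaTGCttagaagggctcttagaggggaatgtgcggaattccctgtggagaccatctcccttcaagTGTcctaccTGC
In the *Trim47* stretch (residues 9 to 57, gene at chr11:116105752-116127210, minus strand) 69.4% of bases were G or C. The *Trim3* stretch (residues 22 to 62, chr7:105604463-105633571, minus strand) was at 52.8%, that of *Trim72* (residues 14 to 56, chr7:128003949-128011033, plus strand) at 64.3% and that of *Trim8* (residues 15 to 55, chr19:46501702-46516848, plus strand) at 63.4%. The *Trim33* stretch (residues 139 to 198, chr3:103279293-103358775, plus strand) was at 66.1% and the *Trim13* stretch (residues 10 to 57, chr14:61598247-61605946, plus strand) at 50.7%. *Trim8* spelled all 7 cysteines of the pattern as TGC, *Trim13* 6 of them, *Trim47* 5, *Trim72* 4, and *Trim3* and *Trim33* 3 each, the rest being TGT. This spelling did not follow the direction of the differences. Over whole coding sequences, G or C at the third codon position made up 61.6% to 81.9% in the 5 of these 9 members that were higher in KO muscle and 34.8% to 51.2% in the 4 that were lower. In *Trim23*, *Trim24* and *Trim41* the pattern was not found with the spacing searched, so no stretch is printed for them.

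Of the 66 members, 28 reached a mean of 0.5 FPKM over the 6 libraries, the filter of the test. The sum over all members was 218.8 to 225.2 FPKM in WT and 209.6 to 237.4 FPKM in KO libraries, so the ranges overlapped. *Trim35*, a SPRY-domain ligase, had the highest mean level (31.2 FPKM), followed by *Trim24* (28.2), *Trim72* (27.8) and *Trim28* (21.7). Next came *Trim7* (12.2), *Trim16* (10.8) and *Trim23* (10.1), and the other 21 tested members were under 10 FPKM, 7 of them under 2. Neighbours in this order overlapped in their libraries in 25 of 27 cases. The breaks lay between *Trim28* and *Trim7* and between *Trim39* and *Trim68*. By position, 17 members lie on chromosome 7, 10 on chromosome 11 and 6 each on chromosomes 9 and 17. On chromosome 7, which holds the *Trim5*-like and *Trim30* clusters, 7 members were tested, on chromosome 11 8 were, and on chromosome 9 0 were.

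**Figure D1:**
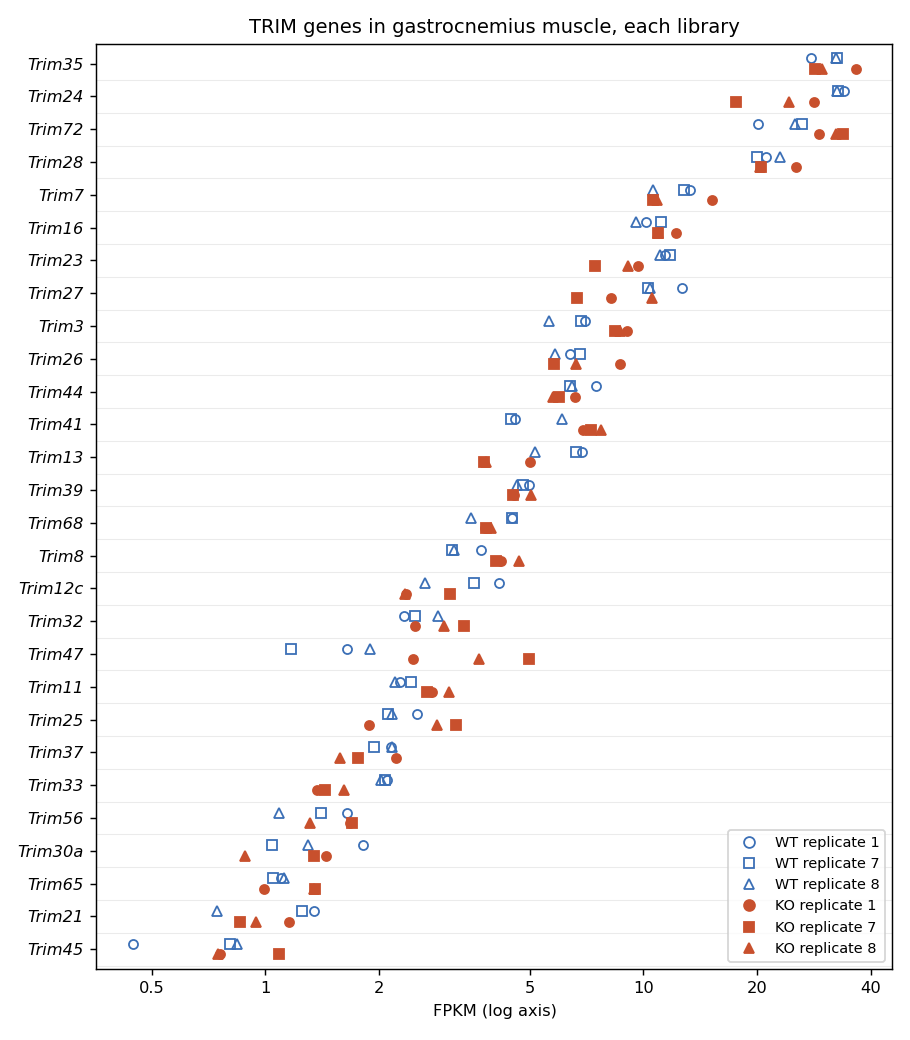
FPKM on a log axis for the 28 tested TRIM genes, ordered by their mean over 6 libraries, with open blue symbols for WT and filled red symbols for KO libraries. Circles, squares and triangles are replicates 1, 7 and 8. *Trim35*, *Trim24*, *Trim72* and *Trim28* form the top, and KO symbols lie apart from WT symbols in 10 genes, 6 with KO higher and 4 with KO lower.

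The question of the comparison is which TRIM genes differ in level between KO and WT muscle. It was tested with limma on log2(FPKM + 0.1) for all 12334 genes past the filter, and the fold changes below are on that scale, KO minus WT, which understates the change of low genes. No tested member passed an adjusted p of 0.05 (0 of 28, lowest adjusted p = 0.0802, limma), where 0.324% of all tested genes did. At an unadjusted p under 0.05, 5 members were higher in KO muscle (17.9%, background 15.3%) and 4 were lower (14.3%, background 10.9%). The number of lower members was 2 without WT replicate 7. In 6 members each of the 3 KO libraries was above each of the 3 WT libraries (21.4%, background 18.3%). In 4 each was under them (14.3%, background 16.2%). These shares, from all 6 libraries, are near those of all genes. The count of members with all KO libraries lower was 7 without WT replicate 8. The shares of all genes with a library left out are not given here, and with fewer libraries, groups fail to overlap more easily. The median log2 fold change was 0.035 over the 28 members and 0.010 over all tested genes, with 15 members above 0 and 13 under it, and it was -0.046 without KO replicate 1. With array weights, which give each library its own weight, 10 members passed the adjusted threshold, as did 25.5% of all genes.

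The summed levels of fat cell, red cell and muscle markers did not overlap between the genotypes, though no single marker passed the adjusted threshold. The summed level of 5 fat cell markers was 7.35 to 34.8 FPKM in WT and 44.3 to 167.5 FPKM in KO libraries, highest in KO replicate 7. Of the 5, 4 were higher at an unadjusted p under 0.05 (background 15.3%). The 4 matched markers of red cells and their precursors summed to 64.9 to 98.2 FPKM in WT and 112.5 to 228.4 in KO. Of the 3 tested, *Hba-a1* and *Hba-a2* were higher at an unadjusted p under 0.05 (background 15.3%), and *Alas2* was at 0.16 (adjusted p = 0.559, limma). The sum of muscle markers was 34731 to 50220 in WT and 51092 to 56692 in KO. At that threshold 4 of 10 tested markers were higher (background 15.3%), while *Pvalb* was at -0.15 and *Pygm* at -0.0010. Leukocyte markers (2.80 to 8.35 FPKM in WT, 5.54 to 11.6 in KO), interferon-induced genes (7.25 to 8.95, 7.19 to 8.76), nerve and Schwann cell markers (23.3 to 81.7, 26.1 to 102.5, with *Nefl* and *Tubb3* at 0 in all libraries) and endothelial markers (39.1 to 44.2, 39.3 to 51.5) overlapped in their sums. In the endothelial list 1 of 5 was higher (*Tie1*, 0.79, adjusted p = 0.0750, limma) and 1 lower (*Kdr*, -0.44, adjusted p = 0.185) at an unadjusted p under 0.05 (background 15.3% and 10.9%). After the correction for GC content described below, *Adipoq*, *Cidec*, *Plin1*, *Cfd*, *Hba-a1*, *Des* and *Myh2* kept an unadjusted p under 0.05 (background 5.33%). *Ckm* (0.40), *Acta1* (0.34), *Hba-a2* (0.55), *Tie1* (0.28) and *Kdr* (-0.38) did not. The part of these cell types in the values of the TRIM genes was not tested, and in whole muscle fewer cells of a type and less RNA per cell cannot be told apart.

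**Figure D2:**
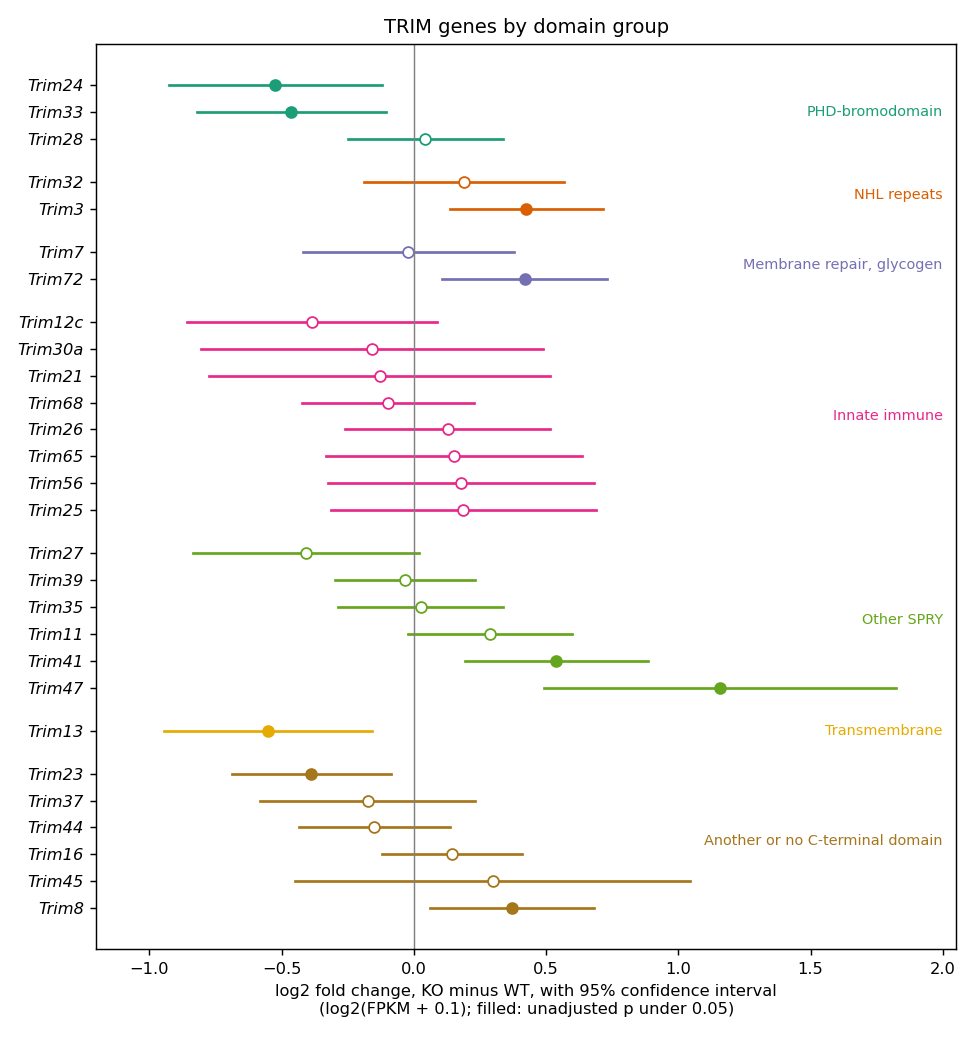
log2 fold change (KO minus WT, on log2(FPKM + 0.1)) of the 28 tested TRIM genes by domain group, with bars for the 95% confidence interval from limma. Filled points have an unadjusted p under 0.05. *Trim47* is farthest to the right at 1.16, and *Trim13* farthest to the left at -0.55.

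The fold changes of the members went with the GC content of their transcripts. Over the 28 tested members, the log2 fold change and the GC content had a Pearson correlation of 0.83 and a Spearman correlation of 0.83, and the Spearman correlation over 11985 tested genes with a known GC content was 0.70. Genes are not independent replicates, and all points come from the same 6 libraries, so these values are descriptions. The 6 members with a GC content of 57% or more, from *Trim3* at 57.6% to *Trim47* at 62.2%, all had positive fold changes, from 0.29 to 1.16. The 9 members under 48%, from *Trim23* at 37.6% to *Trim24* at 47.3%, all had negative ones, from -0.55 to -0.13. Of the 13 between these bounds, which were chosen after the values were seen, 9 were positive and 4 negative. Each of the 5 higher members had a GC content over 57%, and each of the 4 lower members one under 48%.

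**Figure D3:**
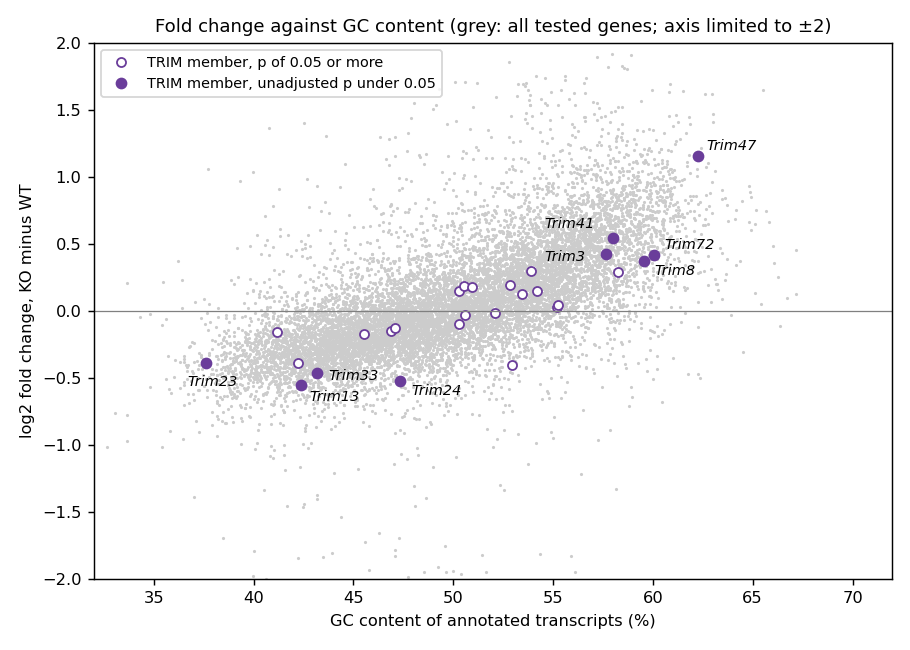
log2 fold change (KO minus WT) against the GC content of annotated transcripts in percent, with grey points for the 11985 tested genes with a known GC content (those beyond the axis are not drawn) and purple points for the 28 tested TRIM genes, filled at an unadjusted p under 0.05. The named TRIM genes run from *Trim23* (37.6%, -0.39) to *Trim47* (62.2%, 1.16) along the slope of the grey cloud.

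After each library's trend on GC content was subtracted, 0 of the 28 members were higher at an unadjusted p under 0.05 (background 5.33%) and 2 were lower (7.14%, background 5.4%). The lower members were *Trim24* at -0.42 (adjusted p = 0.419, limma) and *Trim27*, which had missed the threshold before, at -0.59 (adjusted p = 0.372). In 21 of 28 members the fold change came closer to 0. *Trim47* was at 0.46 (adjusted p = 0.571), *Trim41* at 0.020, *Trim13* at -0.25, *Trim33* at -0.19 and *Trim23* at 0.060. The fold changes of *Trim3* (-0.072), *Trim72* (-0.20), *Trim8* (-0.22) and *Trim11* (-0.25) turned from positive to negative. *Trim24* is the member whose lower level in KO muscle passed the unadjusted threshold both ways. The median of the family after the correction was -0.078, and the Spearman correlation with GC content was -0.21. The cause of the trend was not tested.

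**Figure D4:**
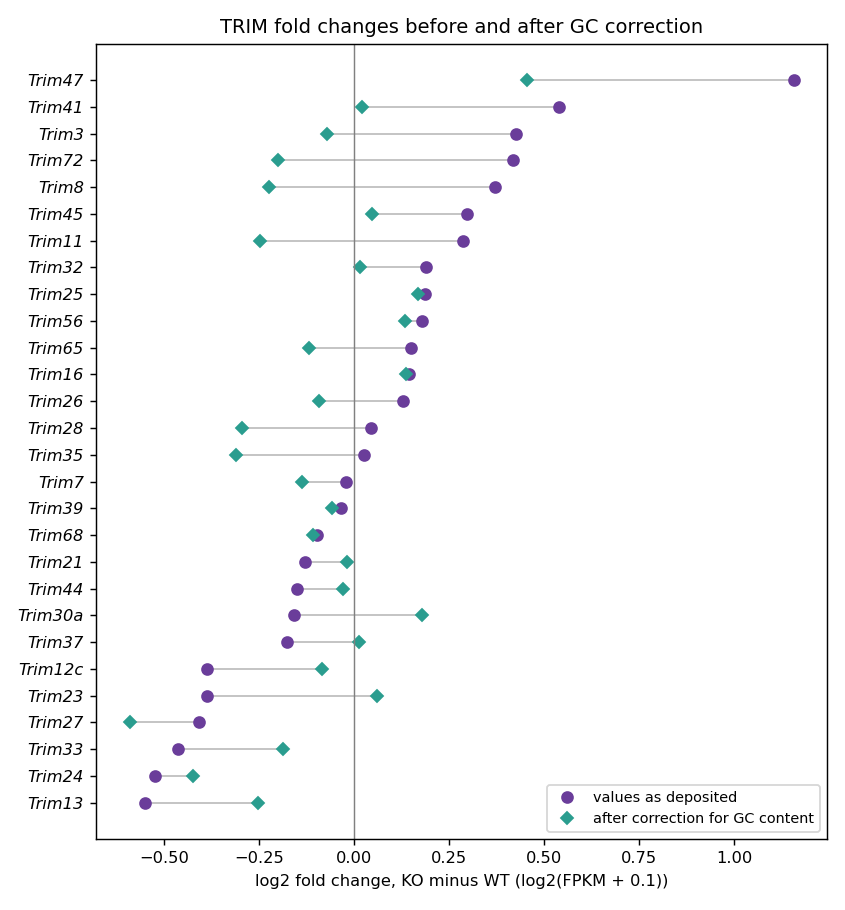
log2 fold change (KO minus WT) of the 28 tested TRIM genes as deposited (purple circles) and after each library's trend on GC content was subtracted (green diamonds), with a line joining the values of a gene. *Trim47* moves from 1.16 to 0.46 and *Trim72* from 0.42 to -0.20, while *Trim24* moves from -0.52 to -0.42.

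The PHD-bromodomain members read histone marks and act as co-regulators of transcription. Of the 3 that were tested, 2 were lower in KO muscle at an unadjusted p under 0.05 (background 10.9%). This list, like the other group lists, was chosen with earlier results of these data known, and so few genes say little about a group. *Trim24*, a co-regulator of nuclear receptors, was at 34.0, 32.7 and 32.4 FPKM in the WT libraries 1, 7 and 8 and at 28.3, 17.6 and 24.2 FPKM in the KO libraries of the same numbers. Here and below, values are in the order of these numbers. WT libraries were close together, and each KO library lay under them, KO replicate 7 the farthest. The log2 fold change was -0.52 (standard error 0.17, adjusted p = 0.125, limma), and without KO replicate 7, the library with the highest fat cell sum, it was -0.33. *Trim33*, which ubiquitinates Smad4 and so limits transforming growth factor beta signalling, was at 2.10, 2.08 and 2.02 FPKM in WT and at 1.37, 1.44 and 1.62 in KO, again without overlap (-0.46, standard error 0.15, adjusted p = 0.124). *Trim28*, the corepressor that KRAB zinc finger proteins recruit to DNA, was at 21.0, 19.97 and 22.9 FPKM in WT and at 25.3, 20.5 and 20.3 in KO. Its genotypes overlapped, and its log2 fold change of 0.044 had a 95% interval of -0.25 to 0.34. The median of these 3 was -0.46, the value of *Trim33*. After the correction for GC content *Trim24* was at -0.42, *Trim28* at -0.30 and *Trim33* at -0.19. The median of -0.30 is then the value of *Trim28*, which had been above 0 before the correction. The group's other member, *Trim66*, was under the filter.

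*Trim72* and *Trim7* encode SPRY-domain proteins with known work in muscle fibers. *Trim72* (MG53), which moves vesicles to tears in the sarcolemma, was at 20.1, 26.3 and 25.1 FPKM in WT and at 29.2, 33.8 and 32.3 in KO. No KO library overlapped the WT range, and the lowest of each genotype was replicate 1. The log2 fold change was 0.42 (standard error 0.13, adjusted p = 0.118, limma). *Trim7*, the partner of glycogenin, was at 13.3, 12.8 and 10.6 FPKM in WT and at 15.2, 10.6 and 10.8 in KO. The genotypes overlapped, and the log2 fold change of -0.020 had a 95% interval of -0.42 to 0.38.

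Members with NHL repeats, a propeller-shaped C-terminal domain that can bind RNA or protein, had 1 of 2 tested genes higher in KO muscle at an unadjusted p under 0.05 (background 15.3%). Their median log2 fold change was 0.31, and -0.027 after the correction for GC content. *Trim3*, known from neurons as a binder of myosin V, was at 6.999, 6.85 and 5.62 FPKM in WT and at 9.03, 8.42 and 8.69 in KO. The groups did not overlap, and the log2 fold change was 0.43 (standard error 0.12, adjusted p = 0.103, limma). *Trim32*, the ligase of a limb-girdle muscular dystrophy, was at 2.32, 2.48 and 2.86 FPKM in WT and at 2.49, 3.36 and 2.96 in KO, with overlap (0.19, 95% interval -0.19 to 0.57). *Trim2* had a mean of 0.462 FPKM, just under the filter, and *Trim71* was listed at 0 in each library.

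The members listed as other SPRY proteins, a list without *Trim16*, ranged from -0.41 to 1.16 in log2 fold change. Of its 6 tested genes, 2 were higher at an unadjusted p under 0.05 (background 15.3%). The group's median turned from 0.16 to -0.15 with the correction for GC content. *Trim47* was at 1.64, 1.17 and 1.90 FPKM in WT and at 2.46, 4.99 and 3.67 in KO. All KO libraries were higher, and they spread more (3.70 ± 1.27, SD, n = 3) than the WT libraries (1.57 ± 0.371, SD, n = 3). Its log2 fold change of 1.16 was the largest of the 28 tested members (standard error 0.28, adjusted p = 0.0802, limma), and it was 0.92 without KO replicate 7. *Trim47* overlaps *Trim65* on the same strand and shares 7.27% of its 31-base words with another gene, so fragments of this pair can be split between them. *Trim41*, a ligase for protein kinase C isoforms, was at 4.57, 4.47 and 6.09 FPKM in WT and at 6.91, 7.29 and 7.73 in KO (0.54, standard error 0.15, adjusted p = 0.0956). It is antisense to *Rack1*, and since strand use in the counting is not stated, reads from either gene cannot be told apart here.

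*Trim11* was at 2.28, 2.43 and 2.21 FPKM in WT and at 2.76, 2.68 and 3.06 in KO, without overlap, yet it missed an unadjusted p of 0.05 (log2 fold change 0.29, adjusted p = 0.217, limma). *Trim27*, which acts with the retromer coat of endosomes, was at 12.7, 10.3 and 10.4 FPKM in WT and at 8.19, 6.67 and 10.5 in KO. KO replicate 8 overlapped the WT range, and the log2 fold change was -0.41 (95% interval -0.83 to 0.019). *Trim35*, the most abundant member, was at 27.8, 32.6 and 32.2 FPKM in WT and at 36.6, 28.4 and 29.6 in KO, with a log2 fold change of 0.026 (95% interval -0.29 to 0.34). The genotype means of *Trim39* were 4.81 FPKM in WT and 4.70 FPKM in KO.

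The next list was drawn up for members with another or no C-terminal domain, although *Trim16*, placed in it, carries a SPRY domain. In this list *Trim23* was lower and *Trim8* higher at an unadjusted p under 0.05, 1 of 6 tested genes in each direction (background 10.9% and 15.3%). *Trim23*, unusual in carrying an ARF-type GTPase domain behind its ligase part, was at 11.4, 11.8 and 11.1 FPKM in WT and at 9.70, 7.45 and 9.12 in KO. No KO library reached the WT range (-0.39, standard error 0.13, adjusted p = 0.126, limma). *Trim8*, which acts on suppressor of cytokine signalling 1, was at 3.71, 3.12 and 3.15 FPKM in WT and at 4.20, 4.08 and 4.70 in KO (0.37, standard error 0.13, adjusted p = 0.144). *Trim16*, a protein without a RING finger that takes part in the autophagy of damaged lysosomes, was at 10.1, 11.1 and 9.53 FPKM in WT and at 12.2, 10.9 and 10.9 in KO, with overlap (0.14, 95% interval -0.12 to 0.41). *Trim44*, which also lacks the RING finger, was at 7.52, 6.38 and 6.49 FPKM in WT and at 6.60, 5.98 and 5.75 in KO (-0.15, 95% interval -0.43 to 0.14). *Trim37*, a ligase of centrioles and peroxisomes, had genotype means of 2.08 FPKM in WT and 1.85 in KO, and *Trim45* of 0.698 and 0.865.

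*Trim13* carries a transmembrane segment and sits in the endoplasmic reticulum, where it takes part in protein degradation. Its level was 6.87, 6.63 and 5.17 FPKM in WT and 5.02, 3.80 and 3.84 in KO. The gap between the genotypes was narrow, from KO replicate 1 to WT replicate 8, and the log2 fold change was -0.55 (standard error 0.17, adjusted p = 0.108, limma). In sequence, 28.7% of the 31-base words of its transcripts occur in another gene, and the antisense gene *Dleu2* overlaps it, so its level is uncertain.

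The TRIM genes of innate immunity include the rodent relatives of *Trim5* and ligases of viral RNA sensors. At an unadjusted p under 0.05, 0 of 8 tested members were higher (background 15.3%) and 0 were lower (background 10.9%). With so few genes, this says little about the group. Of the 8, 4 were above and 4 under 0, with a median log2 fold change of 0.015. *Trim26* was at 6.41, 6.82 and 5.82 FPKM in WT and at 8.67, 5.80 and 6.63 in KO. Only KO replicate 1 stood above the WT range (0.13, 95% interval -0.26 to 0.52). *Trim12c* was at 4.14, 3.55 and 2.64 FPKM in WT and at 2.35, 3.08 and 2.34 in KO, with overlap (-0.39, 95% interval -0.86 to 0.086), and it shares 47.7% of its 31-base words with another gene, *Trim5* the closest. The ligase of the RNA sensor RIG-I, *Trim25*, had means of 2.26 FPKM in WT and 2.64 in KO, and *Trim56* of 1.38 and 1.56. *Trim65*, a ligase of the sensor MDA5, had means of 1.09 and 1.23 FPKM, and *Trim21*, the cytosolic antibody receptor, of 1.11 and 0.986. The means were 1.38 and 1.22 FPKM for *Trim30a* and 4.16 and 3.86 FPKM for *Trim68*. The interferon-induced marker genes beside them gave 0 of 6 tested genes at an unadjusted p under 0.05 (background 15.3% higher and 10.9% lower).

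The other 38 members were too low for the fit. Of these, 14 were above 0 in all libraries, 16 were listed at 0 in some, and 8 were listed at 0 in all 6 (*Trim30c*, *Trim30e-ps1*, *Trim31*, *Trim42*, *Trim50*, *Trim52*, *Trim61* and *Trim71*). No single value among them passed 0.741 FPKM, that of *Trim2* in KO replicate 7. For a transcript 1 kilobase long, a single fragment equals 0.0477 to 0.0690 FPKM, so many of these values rest on a few fragments. Those above 0 in all libraries were *Trim2*, *Trim6*, *Trim14*, *Trim17*, *Trim34a*, *Trim36*, *Trim43a*, *Trim43b*, *Trim43c*, *Trim46*, *Trim59*, *Trim62*, *Trim66* and *Trim67*. The members listed at 0 in some libraries were *Trim5*, *Trim9*, *Trim10*, *Trim12a*, *Trim15*, *Trim29*, *Trim30b* under both identifiers, *Trim30d*, *Trim34b*, *Trim38*, *Trim40*, *Trim58*, *Trim60*, *Trim69* and *Trim75*, with 0.334 FPKM the highest value among them (*Trim34b*, KO replicate 7). In the annotation the identifiers of *Trim43a* and *Trim43c* carry each other's symbol and that of *Trim61* is named *Apela*, and 11 of the 38 share over 10% of their 31-base words with another gene. None of the 5 COS-box members, which bind microtubules, and neither of the erythroid members *Trim10* and *Trim58* passed the filter.

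Among the 30 of these members that were above 0 in a library, KO libraries were all higher in 2 (6.67%, background 5.89% of 8027 genes under the filter) and all lower in 3 (10%, background 3.24%). The smallest p that 3 against 3 libraries can give in an exact permutation test is 0.1, so none can pass 0.05. *Trim34a* was at 0.420, 0.561 and 0.508 FPKM in WT and at 0.307, 0.231 and 0.167 in KO (exact permutation test, two-sided, p = 0.1). It shares 48.7% of its 31-base words with another gene, *Trim34b* the closest, and that gene was at 0.334 FPKM in KO replicate 7 and at 0.119 or less elsewhere. *Trim6* was at 0.107, 0.137 and 0.118 FPKM in WT and at 0.0182, 0.0562 and 0.0922 in KO, and *Trim66* at 0.0746, 0.0910 and 0.0919 in WT and 0.0599, 0.0511 and 0.0555 in KO. The 2 with higher KO values were *Trim46*, antisense to *Krtcap2*, at no more than 0.262 FPKM and *Trim38* at no more than 0.0815 FPKM. These 5 genes are named after their values were seen.

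Known partners and relatives outside the naming rule were taken from a list of 21 genes, of which 20 were matched and 19 tested. This list too was chosen with earlier results of these data known. None passed the adjusted threshold. At an unadjusted p under 0.05, 2 of 19 were higher and 5 of 19 lower, where the background is 15.3% and 10.9%, and the median log2 fold change was -0.17 (-0.063 after the correction for GC content). Of the 4 tested E2 enzymes that work with TRIM ligases, 3 were lower at that threshold (background 10.9%) and *Ube2w* was at -0.35 (adjusted p = 0.254). *Ube2d3* was at 127.0, 130.5 and 126.9 FPKM in WT and at 95.3, 78.9 and 103.1 in KO (-0.48, standard error 0.12, adjusted p = 0.0847, limma). *Ube2n*, an E2 that builds signalling rather than degradation chains, had a log2 fold change of -0.43 (adjusted p = 0.0950) and *Ube2d1* one of -0.55 (adjusted p = 0.124). Of the heterochromatin proteins, which *Trim28* complexes bring to chromatin, *Cbx5* (-0.43, adjusted p = 0.0853) and *Cbx1* (-0.28, adjusted p = 0.158) were lower, and *Cbx3* was at -0.17 (adjusted p = 0.333). After the correction for GC content these values were -0.12 for *Ube2d3*, -0.14 for *Ube2n*, -0.32 for *Ube2d1*, -0.15 for *Cbx5* and -0.14 for *Cbx1*, and none of these 5 passed an unadjusted p of 0.05. The membrane repair partners of *Trim72* gave 0.29 for dysferlin (*Dysf*, adjusted p = 0.171) and 0.36 for caveolin 3 (*Cav3*, adjusted p = 0.217), and both were near 0 after the correction (-0.063 and -0.068). Glycogenin (*Gyg*), the partner of *Trim7*, was at -0.21 (adjusted p = 0.364), and dysbindin (*Dtnbp1*), a target of *Trim32*, at 0.31 (adjusted p = 0.181, and -0.0095 after the correction). The largest log2 fold change of the list was that of *Pias4* (0.70, and 0.17 after the correction). *Mavs* was at 0.28, *Smad4* at 0.045, *Setdb1* at -0.028 and *Ddx58* at -0.15. *Pias4* and these genes did not reach the unadjusted threshold. Of the relatives, *Mid1* (-0.34, adjusted p = 0.352), *Mid2* (-0.34, adjusted p = 0.348) and *Pml* (0.053, adjusted p = 0.924) did not reach the unadjusted threshold. After the correction *Mid1* was at -0.57 and did reach it (background 5.4%), while *Mid2* was at -0.051 and *Pml* at -0.31.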

How the data were processed

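The data are RNA-seq of GAS muscle from 3 WT and 3 KO mice. Per the labels, libraries were made from total RNA with a stranded mRNA kit. The authors mapped reads to GRCm38 with TopHat, quantified genes with Cufflinks and deposited FPKM values of 37979 genes without counts. Tool versions, the annotation release and the use of strand in counting are not given in the sources used here. The members and gene lists were chosen with earlier results of these data known.

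A filter kept 12334 genes, those whose mean over the libraries was 0.5 FPKM or more. Their log2(FPKM + 0.1) values entered limma 3.58.1 (R 4.3.3), which let the variance follow mean expression and adjusted p-values over all of them (Benjamini-Hochberg). The test was first tried on simulated data with changes larger than those of the members and without a trend on GC content. That trial does not cover changes of the size seen here. Single values were tested by exact permutation, two-sided. A call was an adjusted p under 0.05. Values in each library are given for the 12 tested members with the highest mean, the 12 with the lowest p, and all tested members of the PHD-bromodomain, NHL and membrane repair groups, while members under the filter are given by range, apart from those whose genotypes did not overlap, which were chosen after their values were seen. Gene positions, GC content, coding sequences and shared 31-base words came from GENCODE vM21 on GRCm38. GC content was corrected by subtracting, in each library, a loess curve (span 0.3) of its deviation from the mean of the libraries. Depth was estimated from genes whose low FPKM values fell on whole fragments within a tolerance of 0.15, which held for 91.5% to 96.2% of these values. At most 1 value was shared by any pair of libraries among the 14983 genes above 0 in all. Alternatives covered the pseudocount, the filter, scaling, the variance model, array weights, genes listed at 0, a replicate block, GC content and the removal of each library in turn. Plots were made in matplotlib 3.10.9.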

Additional observations from a re-analysis of the deposited data

How the results depend on the processing

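Over 16 alternatives, array weights were the alternative under which members passed the adjusted threshold (10 of 28), and leaving out each library gave 0 throughout. The correction for GC content left 0 higher and 2 lower members at an unadjusted p under 0.05, a median log2 fold change of -0.078, and 1 member whose KO libraries were all higher. Without a filter on low FPKM, 7 of 58 members had all KO libraries lower, where 4 of 28 did with it. The larger count comes with more genes, and the share of all genes under that setting is not given here. When each library was left out, 4 to 6 members were higher, 2 to 5 lower (2 without WT replicate 7), 6 to 9 had all KO libraries higher and 4 to 7 all lower (7 without WT replicate 8), and the median ran from -0.046 (without KO replicate 1) to 0.075; with fewer libraries, groups fail to overlap more easily. The correction for GC content turned the sign of the log2 fold change for *Trim35* (-0.31), *Trim28* (-0.30), *Trim72* (-0.20), *Trim3* (-0.072), *Trim8* (-0.22), *Trim11* (-0.25), *Trim26* (-0.091), *Trim65* (-0.12), *Trim23* (0.060), *Trim37* (0.014) and *Trim30a* (0.18). Median scaling did so for *Trim35* (-0.023) and *Trim28* (-0.0044), and array weights for *Trim35* (-0.069) and *Trim39* (0.017). Leaving out a library did so for *Trim35* (-0.086 to 0.096), *Trim28* (-0.060 to 0.099), *Trim7* (-0.19 to 0.071), *Trim26* (-0.031 to 0.26), *Trim30a* (-0.33 to 0.045) and *Trim21* (-0.37 to 0.017), and the other 22 members kept their sign. The causes were not tested. A pairing by replicate number was looked for in the values. The correlations of same-numbered deviations were -0.025, -0.080 and 0.034, and not each sample correlated best with its own number. With so few libraries, these values cannot exclude a pairing. With a replicate block 0 members passed the adjusted threshold, 5 were higher and 4 lower. The estimated depth limits the members under the filter.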
